A study of Mus musculus with 4 samples.

Results

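Cytokine, chemokine and interferon response genes were taken from hippocampal arrays as the probe sets paired with a single gene symbol of these families. The symbols begin with Ccl, Cxcl, Ccr, Cxcr, Il, Tnfsf, Ifi, Irf, Stat or Gbp (with a digit after Ccl, Ccr, Il, Irf, Stat and Gbp), or are Tnf, Isg15, Usp18, Mx1, Tgfb1, Tgfb2 or Tgfb3. The rule found 146 probe sets for 127 genes among 12422 probe sets, which name 8251 genes, and a further 11 probe sets that pair such a symbol with others were left out. Because the rule reads symbols only, it also took Irf2bp1, a binding partner of an interferon regulatory factor, and Ifitm10, a distant relative of the interferon-induced transmembrane proteins. RNA of the left hippocampus had been measured on 4 arrays, each from a male mouse of 12 months. Controls were nontransgenic mice (C57B6/SJL), and the transgenic group was of the Tg2576 line (APPSw), each with 2 arrays. That line overexpresses amyloid precursor protein with the Swedish mutation, from a transgene driven by a prion protein promoter, and the labels describe each array as a mouse without stating littermates or separate extractions. P-values therefore measure the spread between these arrays, which may be partly technical, and the number of arrays limits their precision.

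Cytokines and chemokines are secreted proteins that immune cells, and in the brain microglia, astrocytes and endothelium, use to signal to their neighbours. Their receptors act largely through JAK kinases and STAT factors, or through NF-kappa B. Interferons are cytokines of antiviral defence whose receptors activate STAT and IRF factors, which bind the interferon-stimulated response element (ISRE) or the gamma-activated site (GAS) and switch on effectors such as the guanylate-binding proteins and Isg15. In mice with amyloid deposits, glial cells near the deposits are known to express some of these genes.

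Each value was an MAS 5.0 signal, a linear intensity summarised over the short probes of a probe set and scaled by the authors. A probe set counted as above the limit when its geometric mean signal over the 4 arrays reached 565.2, the 40th percentile of all probe sets. Of the 146 probe sets, 37 (31 genes) reached it and 109 did not, a share of 25.34% against the 60% that the limit fixes for all probe sets. In every array alone it was reached by 33 members, against 54.7% of all probe sets. Among the 109, 13 reached it in at least 1 array, 7 of them in APPSw 1, 7 in APPSw 2, 1 in control 1 and 0 in control 2. The same share over all probe sets under the limit is not given here. APPSw 1 was the highest array for 38.53% of the 109 (background 33.73%) and APPSw 2 for 29.36% (background 28.82%). Control 1 was the highest for 14.68% (background 15.5%) and control 2 for 17.43% (background 21.96%). A total of 96 genes lay under the limit by each of their probe sets. All 13 chemokine receptor probe sets and all 6 TNF family ligand probe sets lay under it, as did 20 of 23 interleukin and 13 of 15 CC chemokine probe sets. IRF factors were mostly above it, with 7 of 10 probe sets, and STAT factors had 4 of 7. Just under the limit lay Il2rb (478.4), Stat5b (486.9) and Ifih1 (522.0), and just over it Cxcl12 (577.2, by 1 of its 3 probe sets), Il18bp (700.8) and Il1r1 (754.8). Signal depends on the probes as well as on the transcript, so a signal under the limit does not show that a gene is silent. Because all 4 arrays enter the mean, APPSw signals can carry a probe set over or under the limit. Gbp3 reached it only through APPSw 2, so its place among the 37 depends on its difference.

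**Figure D1:**
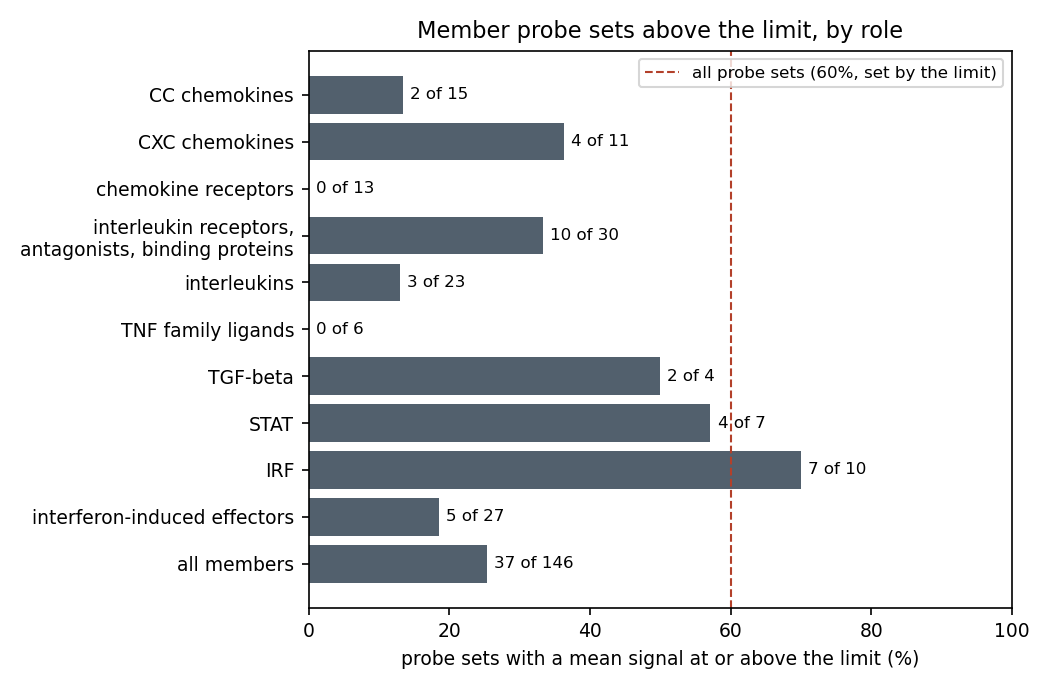
Bars give the percentage of member probe sets whose geometric mean signal over 4 arrays reached 565.2, by role, with counts beside each bar. The dashed line marks the 60% set by the limit over all probe sets; IRF factors (7 of 10) pass it, and chemokine receptors (0 of 13) and TNF family ligands (0 of 6) are at 0.

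The comparison asks which of these genes differ between APPSw and control hippocampus. With limma, 0 of the 37 probe sets passed an adjusted p of 0.05 over 7453 probe sets (background 0%), with a minimum of 0.599 for the adjusted value. Unadjusted p-values under 0.05 were found for 4 of the 37 (10.8%, background 8.05%). These were Irf8, Ifitm3 and Ccl22 with higher values in APPSw mice (3 probe sets, background 4.72%) and Cxcl14 with lower ones (1 probe set, background 3.33%). That count was 2 without control 2, without APPSw 1 or without APPSw 2. Both APPSw arrays lay above both controls for 9 probe sets (24.3%, background 22.2%) and below both for 5 (13.5%, background 19%), shares near the background. By at least 1.5-fold, 0 of the 37 lay above every control (background 0.859%) and 0 below (background 0.362%). The median log2 difference, APPSw minus control, was 0.095 over the 37 and 0.018 over all 7453. The members' median was 0.0060 without control 1, 0.199 without control 2, 0.052 without APPSw 1 and 0.055 without APPSw 2. Of the 37, 24 lay above 0 (64.9%, background 52.7%), and 18 did when each array was centred on its median, which moved the median of all 7453 to -0.079. The control arrays differed by a median of 1.26-fold over these probe sets and the APPSw arrays by 1.205-fold.

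Among the 109 probe sets under the limit, 37 had both APPSw arrays above both controls (33.9%, background 25.8% of 4969) and 10 had both below (9.17%, background 10.7%). For 11 every APPSw signal was at least 1.5-fold above every control (10.1%, background 7.33%), and for 3 at least 1.5-fold below (2.75%, background 3.4%). The median log2 difference was 0.396 against 0.211 over all probe sets under the limit, and 72 of the 109 lay above 0 (66.1%, background 61.6%). By role this median was 1.31 for 7 CXC chemokine probe sets, 0.917 for 22 interferon-induced effector probe sets and -0.082 for 20 probe sets of interleukin receptors and inhibitors. The member with the lowest unadjusted p when all 12422 were fitted was Ifi207, of a family of interferon-inducible DNA sensors, at 32.0 and 38.0 on the control arrays against 284 and 258 on the APPSw arrays, with limma's adjusted p = 0.466. Ifitm6, of the interferon-induced transmembrane family, had 319 and 288 on the control arrays against 611 and 609.5 on the APPSw arrays. In both genes the APPSw signals lay above the controls, and both are named after their values were seen. At these signals the control arrays differed by a median of 1.518-fold and the APPSw arrays by 1.616-fold, so ratios carry little precision. When all 12422 probe sets were fitted, 15 members had an unadjusted p under 0.05 (background 6.57%), and 0 passed the adjusted threshold (background 0%).

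Of the CC chemokines, which attract monocytes and lymphocytes, Ccl22 and Ccl1 were above the limit. Ccl22 (probe set 102310_at), a ligand of Ccr4 made by dendritic cells and macrophages, had signals of 1904 and 1898 on the control arrays against 2713 and 2433 on the APPSw arrays. Both APPSw signals lay above both controls, and the log2 difference was 0.43 (SE 0.17, adjusted p = 0.612). Ccl1 had 1135 and 816 on the control arrays against 1353 and 860.5 on the APPSw arrays by its brighter probe set, with overlapping groups and a difference in log2 signal of 0.17 (SE 0.29, adjusted p = 0.885). Its other probe set, under the limit, had 510.4 and 166 on the control arrays against 108 and 55.2 on the APPSw arrays. Ccl2, the main monocyte attractant, lay between 16.2 and 55.5 in the 4 arrays. Ccl12, a mouse relative of Ccl2, had 62.9 and 83.6 on the control arrays against 172 and 183 on the APPSw arrays, and Ccl17, the other ligand of Ccr4, 129 and 101 on the control arrays against 308 and 564 on the APPSw arrays. Both were higher in APPSw mice without overlap, at signals under the limit, and are named here after their values were seen, with unadjusted p-values by limma of 0.0067 and 0.010 when all probe sets were fitted (adjusted p = 0.588 and 0.614).

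CXC chemokines were represented above the limit by Cxcl12 and Cxcl14. Cxcl14 (probe set 96953_at), which hippocampal interneurons are known to express, had signals of 3115 and 4042 on the control arrays against 2453 and 2495 on the APPSw arrays. Both APPSw signals lay below both controls, with a log2 difference of -0.52 (SE 0.20, adjusted p = 0.610), and from -0.71 to -0.33 with an array left out. Cxcl12, the ligand of Cxcr4 that guides migrating neurons and leucocytes, had 2011 and 1676 on the control arrays against 1962 and 1920.2 on the APPSw arrays by its brightest probe set, a log2 difference of 0.080 (SE 0.18, adjusted p = 0.914). Its other probe sets gave -0.19 (SE 0.21) and 0.010 (SE 0.36), and the groups overlapped by all 3. Cxcl10, induced by interferon and a ligand of Cxcr3, had 29.5 and 221 on the control arrays against 57.3 and 239.8 on the APPSw arrays. Cxcl9, induced by interferon gamma, had 22.7 and 20.3 on the control arrays against 249.5 and 74.3 on the APPSw arrays, a pair of APPSw signals that lay above the controls and still under the limit. Among the receptors, Cxcr4 had 213 and 249 on the control arrays against 146 and 258 on the APPSw arrays and overlapped between groups.

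Interleukins above the limit were Il18, Il16 and Il9, and in each the groups overlapped. Il18, an inflammasome-processed cytokine of the interleukin 1 family, had signals of 1138 and 1313 on the control arrays against 1140.4 and 1495 on the APPSw arrays, a log2 difference of 0.095 (SE 0.21, adjusted p = 0.914). Il16, a leucocyte attractant whose precursor is also made by neurons, had 1321 and 1775 on the control arrays against 1338 and 1616 on the APPSw arrays and a log2 difference of -0.059 (SE 0.22, adjusted p = 0.951). Il9, a T cell cytokine, had 673 and 917 on the control arrays against 928 and 847 on the APPSw arrays and 0.17 (SE 0.22, adjusted p = 0.829). The classical inflammatory cytokines lay under the limit in every array. Il1b, the main secreted form of interleukin 1, had 43.4 and 94.7 on the control arrays against 71.8 and 72.3 on the APPSw arrays, and Il6 had 195 and 186 on the control arrays against 224 and 67.2 on the APPSw arrays. Il10, which dampens inflammation, had 36.9 and 74.6 on the control arrays against 164 and 144 on the APPSw arrays, with both APPSw signals above both controls.

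Receptors and soluble inhibitors of interleukins supplied 10 of the 37 probe sets, 6 with differences above 0 and 4 below (median 0.045, and -0.052 when arrays were centred on their medians). Il27ra, a receptor subunit for interleukin 27, had signals of 3388 and 2782 on the control arrays against 4681 and 3697 on the APPSw arrays. Both APPSw signals lay above both controls, and the log2 difference was 0.44 (SE 0.21, adjusted p = 0.615). Il17ra, the shared receptor of interleukin 17 cytokines, had 1728 and 1844 on the control arrays against 2194 and 1976 on the APPSw arrays by its brighter probe set, higher without overlap, and differed by 0.22 (SE 0.17, adjusted p = 0.724), against 0.065 by the other. Il6st, the gp130 chain shared by interleukin 6 family receptors, had 2341 and 2792 on the control arrays against 2226 and 2074 on the APPSw arrays, with both APPSw signals below both controls and a log2 difference of -0.25 (SE 0.18, adjusted p = 0.708). Its dimmer probe set gave 0.025, so its probe sets differed in sign. Il6ra, the ligand-binding partner of Il6st, differed by -0.14 (SE 0.33), and Il1r1, the signalling receptor of interleukin 1, by -0.14 (SE 0.41). In both, the controls spread more widely than the group means, with 738 and 1394 for Il6ra and 571 and 1103 for Il1r1. Il15ra, which presents interleukin 15, differed by 0.30 (SE 0.39), Il10rb, a chain of interleukin 10 family receptors, by 0.22 (SE 0.27), and Il18bp, a secreted inhibitor of Il18, by -0.077 (SE 0.25). The groups overlapped for these 3. Il1rn, the natural antagonist of interleukin 1, lay under the limit at 215 and 330.3 on the control arrays against 380.0 and 122 on the APPSw arrays.

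Tnf, a central inflammatory cytokine, had signals of 128 and 156 on the control arrays against 135 and 224 on the APPSw arrays, under the limit in every array. The transforming growth factors, which restrain inflammation and support neurons, were above the limit for Tgfb2 and Tgfb3. Tgfb2 had 876 and 1204 on the control arrays against 1283 and 1065 on the APPSw arrays, a log2 difference of 0.19 (SE 0.23, adjusted p = 0.828). Tgfb3 had 2500.2 and 1909 on the control arrays against 2868 and 2043 on the APPSw arrays by its brighter probe set and 0.15 (SE 0.25, adjusted p = 0.879). Tgfb1, the isoform best known from microglia and astrocytes, lay under the limit at 72.0 and 86.4 on the control arrays against 92.9 and 78.8 on the APPSw arrays. Groups overlapped for all 3 isoforms.

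Of the STAT factors, Stat3 and Stat5a were above the limit. Stat3, which drives astrocyte reactivity downstream of Il6st, had signals of 4253 and 5658 on the control arrays against 4417 and 4689 on the APPSw arrays by its brighter probe set, a log2 difference of -0.11 (SE 0.21, adjusted p = 0.896). By the other it had 2661 and 2788 on the control arrays against 2154 and 2587 on the APPSw arrays, with both APPSw signals below both controls and -0.21 (SE 0.18). Stat5a, which acts downstream of cytokine and hormone receptors, had 2488 and 2563 on the control arrays against 2622 and 2568 on the APPSw arrays by its brighter probe set, higher without overlap by 0.039 on the log2 scale, and a difference of 0.17 by the other.

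Of the 7 IRF probe sets above the limit, 4 had differences above 0 and 3 below. Irf8 (probe set 98002_at), a factor that macrophages and microglia require, had signals of 571 and 788 on the control arrays against 1036 and 1316 on the APPSw arrays. Both APPSw signals lay above both controls, and its log2 difference of 0.80 (SE 0.24, adjusted p = 0.599) was from 0.57 to 1.03 with an array left out. Irf7, the amplifier of type I interferon responses, had 907 and 440.4 on the control arrays against 1018 and 1275 on the APPSw arrays by a probe set whose name carries the manufacturer's mark for sequence families. Both APPSw signals lay above both controls, with a log2 difference of 0.85 (SE 0.36, adjusted p = 0.612). Without control 2 this was 0.33 and without control 1 it was 1.37. Its other probe set, under the limit, had 121 and 167 on the control arrays against 128 and 126 on the APPSw arrays and did not show the difference. Irf3, the sensor-linked inducer of interferon beta, had 766 and 917 on the control arrays against 992 and 1212 on the APPSw arrays, higher without overlap, and 0.39 (SE 0.20, adjusted p = 0.620). Irf9, the DNA-binding subunit of the ISRE-binding complex, had 1226 and 1435 on the control arrays against 1027 and 1212 on the APPSw arrays, lower without overlap, and -0.25 (SE 0.19, adjusted p = 0.722). Irf1, induced by interferon gamma, differed by 0.11 (SE 0.19), and Irf5, a factor of inflammatory macrophages, by -0.17 (SE 0.22), both with overlapping groups. Irf2bp1 differed by -0.088 (SE 0.17), lower without overlap. The median over the 7 was 0.11, and -0.027 without control 1.

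**Figure D2:**
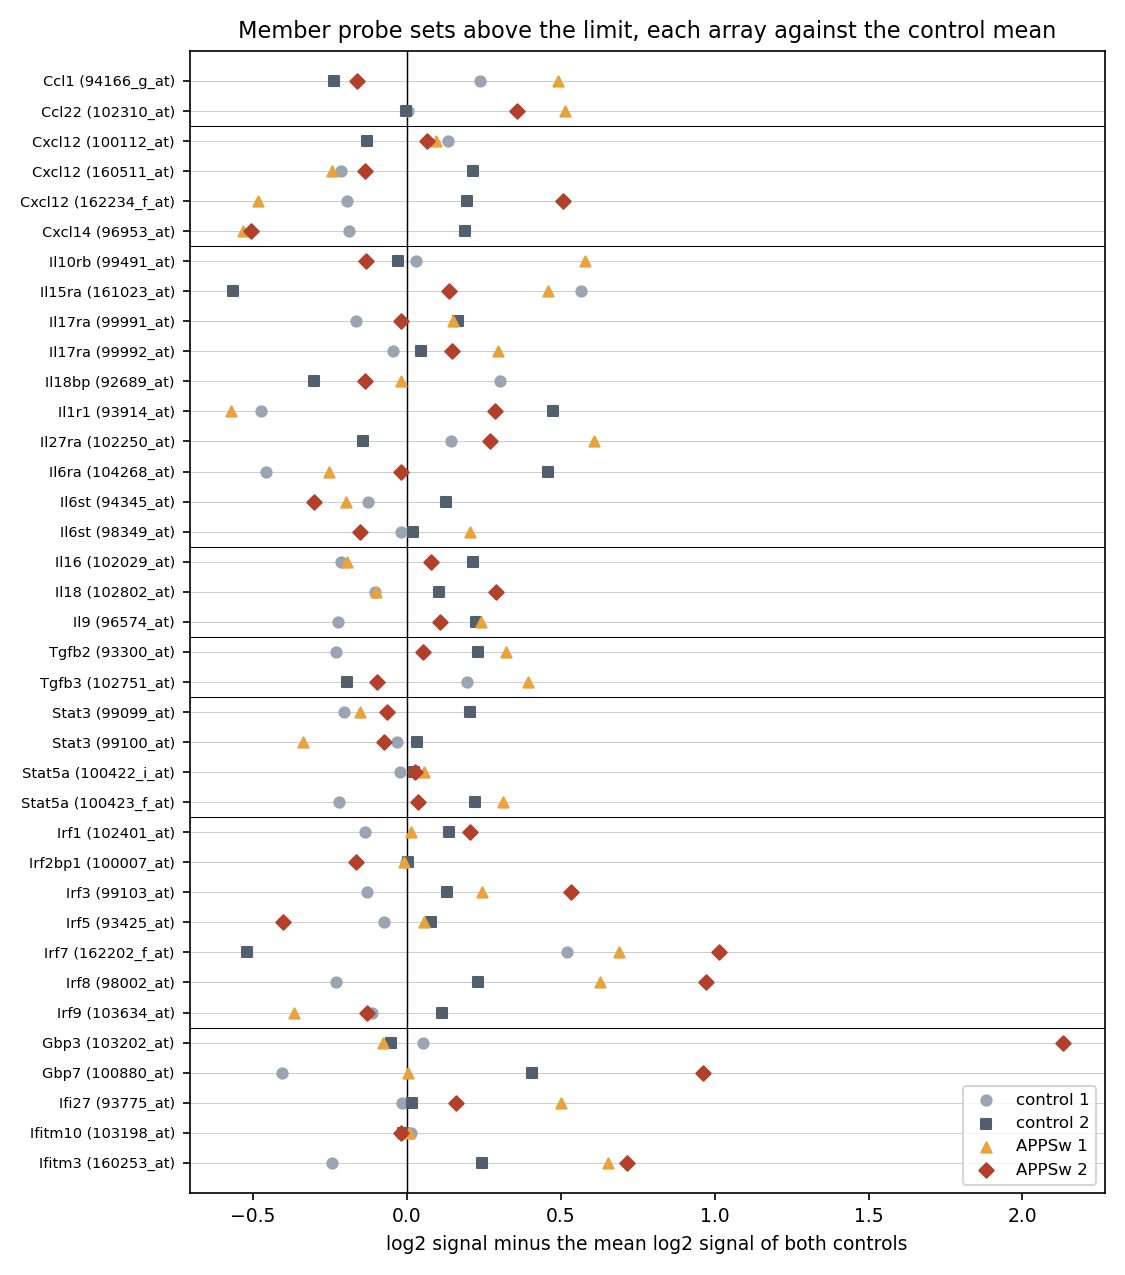
Each row is 1 of the 37 member probe sets above the limit, ordered by role, and each point is an array's log2 signal minus the mean log2 signal of both controls. Irf8 and Ifitm3 have both APPSw arrays to the right of both controls, and Gbp3 has APPSw 2 alone at 2.13.

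Of the 27 probe sets of interferon-induced effectors, 5 were above the limit, 4 with differences above 0 and 1 below, and a median of 0.48. Gbp3, with a difference above 0, was among the 5 only through its signal in APPSw 2. The median over the 5 was 0.0060 without APPSw 2 and 0.889 without control 2. Ifitm3 (probe set 160253_at), a membrane protein that blocks viral entry, had signals of 1522 and 2131 on the control arrays against 2829 and 2958 on the APPSw arrays. Both APPSw signals lay above both controls, and the log2 difference was 0.68 (SE 0.22, adjusted p = 0.599), from 0.44 to 0.93 with an array left out. Ifi27, an interferon-induced protein of mitochondria and the nuclear envelope, had 6070.4 and 6206 on the control arrays against 8674 and 6852 on the APPSw arrays, higher without overlap, and 0.33 (SE 0.19, adjusted p = 0.651). Ifitm10 had 5729.6 and 5628 on the control arrays against 5704 and 5606 on the APPSw arrays, a log2 difference of -0.0062 (SE 0.17, adjusted p = 0.996).

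Gbp3, Gbp2, Isg15 and Ifi47 had signals in APPSw 2 at least 4-fold above each other array, as did Ifi202b at no more than 91.5. Outside the effectors, so did the dimmer Cxcl1 probe set, at 355 in APPSw 2 and at most 45.5 in the other arrays (7.80-fold). Gbp3 (probe set 103202_at), a GTPase of the guanylate-binding family that attacks intracellular pathogens, had 577 and 537 on the control arrays against 527 and 2440.4 on the APPSw arrays, so that APPSw 2 was 4.23-fold above the highest other array. Its log2 difference was 1.03 (SE 0.68, adjusted p = 0.679), and -0.078 without APPSw 2. In Gbp7, of the same family, APPSw 2 was 1.47-fold above the next array, control 2. It had 654 and 1149 on the control arrays against 869.8 and 1689 on the APPSw arrays, a log2 difference of 0.48 (SE 0.41, adjusted p = 0.748), and 0.0044 without APPSw 2. Gbp2 (probe set 104597_at) had 51.9 and 328 on the control arrays against 89.7 and 1749.5 on the APPSw arrays, 5.33-fold above the highest other array, and lay under the limit on average. Genes of this family are similar in sequence, and whether their probe sets share signal was not tested. Isg15 (probe set 98822_at), a ubiquitin-like protein that interferon induces strongly, had 173 and 143 on the control arrays against 211 and 1070.1 on the APPSw arrays, 5.07-fold above the highest other array. Ifi47, an interferon-inducible GTPase, had 34.3 and 45.4 on the control arrays against 48.2 and 447 on the APPSw arrays. Gbp2, Ifi47, Ifi202b and Cxcl1 are named after their values were seen. Mx1, Ifit1 and Usp18 stayed under the limit in every array. Mx1, an antiviral GTPase, had 177 and 129 on the control arrays against 228 and 36.0 on the APPSw arrays, Ifit1 had 34.8 and 54.0 on the control arrays against 132 and 41.1 on the APPSw arrays, and Usp18, which removes Isg15 from proteins, had 59.7 and 124 on the control arrays against 97.6 and 140.3 on the APPSw arrays. Many laboratory strains carry a defective Mx1 gene.

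To describe this evenly, an array was counted as standing apart for a probe set when its signal reached 565.2 and was at least 2-fold above each other array, a rule chosen after the values were seen and given with no test. APPSw 2 stood apart for 3 of the 27 effector probe sets, Gbp2, Gbp3 and Isg15 (11.1%, background 0.378% of 12422). No other array stood apart for any of them, where the background was 0.588% for APPSw 1, 0.145% for control 1 and 0.33% for control 2. Outside the effectors APPSw 2 stood apart for 0 of the remaining members, APPSw 1 for Ccl9 and control 1 for Ccr6. The dimmer Cxcl1 probe set, at 355 in APPSw 2, was not counted because it did not reach 565.2, and neither did Ifi47. APPSw 1 lay above both controls for 15 of the 27 effector probe sets (55.56%, against 41.47% of all probe sets) and APPSw 2 for 18 (66.67%, against 40.77%).

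**Figure D3:**
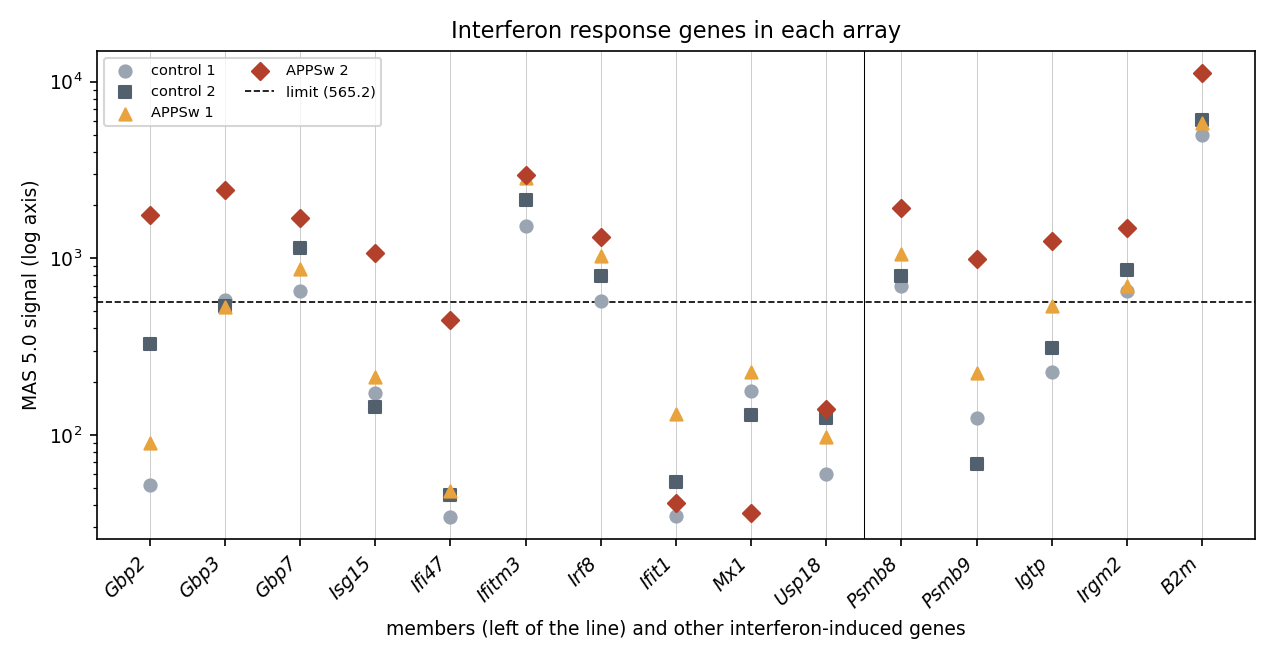
Points give the MAS 5.0 signal of each array on a log axis for 10 members (left of the vertical line) and 5 other interferon-induced genes, picked after their values were seen. The members include genes that were and were not highest in APPSw 2, and all 5 others were highest in it. The dashed line is the limit of 565.2; APPSw 2 is highest for Gbp2, Gbp3, Isg15 and Psmb9 and lowest for Mx1.

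Of 41 other interferon-induced genes listed, 25 were measured and 10 were above the limit, 8 with differences above 0 and 2 below (median 0.165), and 0 passed the test. Psmb8, a subunit of the immunoproteasome that trims antigens, had 700.5 and 792 on the control arrays against 1052 and 1923 on the APPSw arrays and a log2 difference of 0.93 (SE 0.31). Psmb9, its partner subunit, had 124 and 68.5 on the control arrays against 224 and 996 on the APPSw arrays. The GTPase Igtp had 225 and 311 on the control arrays against 538 and 1247 on the APPSw arrays, and Irgm2 649.6 and 861 on the control arrays against 695 and 1489.8 on the APPSw arrays. Their relative Iigp1 had 339.5 and 243 on the control arrays against 479 and 927 on the APPSw arrays by its brighter probe set, and 88.6 and 87.9 on the control arrays against 282 and 1520.3 on the APPSw arrays by the other. B2m, the invariant chain of MHC class I, had 4973 and 6059.6 on the control arrays against 5848 and 11209.5 on the APPSw arrays. In all 6 genes, named after their values were seen, APPSw 2 was the highest array. It was the highest for 13 of the 25 genes, 52%, against 28.8% of all probe sets. Lowest in APPSw 2 were Mx2, Plscr1, Eif2ak2, Lgals3bp and Ly6e, the brightest gene of the list. Sp100 was lowest in APPSw 2 by its brighter probe set and highest by the other. Adar was lower without overlap by its dimmer probe set (log2 difference -0.90, SE 0.23) and gave 0.036 by its brighter one. Cmpk2, under the limit, was lower without overlap by its brighter probe set (-1.06) and higher by the other (1.34). Among the interferon ligands, Ifng lay at 34.8 and 44.1 on the control arrays against 21.3 and 34.5 on the APPSw arrays and Ifnb1 at 57.4 and 76.0 on the control arrays against 416 and 95.1 on the APPSw arrays, all under the limit, and neither was highest in APPSw 2. Ifna4, a type I interferon named after its values were seen, had 405 and 453 on the control arrays against 330.0 and 1073 on the APPSw arrays by its brighter probe set and was highest in APPSw 2. Interferon alpha genes are near copies of each other, so their probe sets may not separate them.

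Promoter sequence was not used to choose the members, and was searched for motifs of interferon and NF-kappa B signalling. RefSeq promoter windows (GRCm38.p6, 250 bases before to 50 after a gene's start) were found for 102 of the 127 genes. The ISRE core, GAAA, any 2 bases and GAAA on either strand, occurred in 11 of 24 windows of interferon-induced effectors (45.83%), in 16 of 126 windows of all members (12.7%) and in 3.443% of all 32851 windows. The 11 effector windows were those of Gbp2, Gbp2b, Gbp3, Gbp7, Ifi207, Ifih1, Ifit1, Ifit3, Ifitm2, Ifitm3 and Isg15. Ifit3, an RNA-binding effector, holds it and had 421 and 343 on the control arrays against 504 and 559.9 on the APPSw arrays, while Ifi47 lacks these letters in its window. The GAS motif, TTC, any 3 bases and GAA on either strand, occurred in 20 of the 126 windows (15.87%, against 8.298% of all windows), those of Irf8, Irf1 and Gbp7 among them. The kappa B motif of NF-kappa B occurred in 17.46% against 8.459%, with Cxcl1, Cxcl2, Cxcl10 and Il6 among its genes. A motif match is a description of letters and not of binding, and these motifs can overlap.

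The 150 bases upstream of the start are shown for Gbp2, Gbp3, Gbp7 and Isg15, chosen after their values were seen, to let the position and repeats of the core be compared. Ifitm3, Ifit3 and Gbp2b also hold the core and were highest in APPSw 2, by 1.045-fold, 1.111-fold and 2.236-fold over the next array. Ifi207, Ifih1, Ifit1 and Ifitm2 hold it too and were highest in APPSw 1. None of these is shown, and in Ifitm3 the core lies just after the start. The sequences shown were read 5′ to 3′ on the gene's strand, with the core in capitals. The core reads TTTC, 2 bases and TTTC where it lies on the opposite strand. In GRCm38.p6 they are chr3:142620513-142620662 (plus strand), chr3:142559894-142560043 (plus strand), chr3:142530186-142530335 (plus strand) and chr4:156200819-156200968 (minus strand).
Gbp2: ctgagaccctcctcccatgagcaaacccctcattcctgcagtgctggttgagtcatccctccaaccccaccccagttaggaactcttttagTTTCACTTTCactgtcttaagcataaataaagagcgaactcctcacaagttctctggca
Gbp3: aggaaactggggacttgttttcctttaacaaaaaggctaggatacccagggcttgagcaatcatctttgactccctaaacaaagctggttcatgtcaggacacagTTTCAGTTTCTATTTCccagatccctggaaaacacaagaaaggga
Gbp7: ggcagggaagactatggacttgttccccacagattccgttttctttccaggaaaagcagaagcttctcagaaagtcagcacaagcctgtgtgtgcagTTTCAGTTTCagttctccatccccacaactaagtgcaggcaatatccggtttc
Isg15: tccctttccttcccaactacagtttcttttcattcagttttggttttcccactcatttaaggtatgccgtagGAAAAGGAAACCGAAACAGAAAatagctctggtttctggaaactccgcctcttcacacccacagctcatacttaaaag
Gbp2 holds the core once, from 59 to 50 bases before the start, and Gbp7 once, from 53 to 44 bases before it. Gbp3 holds overlapping copies from 45 to 30 bases before the start, and Isg15 holds 3 overlapping copies from 78 to 57 bases before it. The Gbp copies lie on the strand opposite to the gene and those of Isg15 on the gene's own strand.

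**Figure D4:**
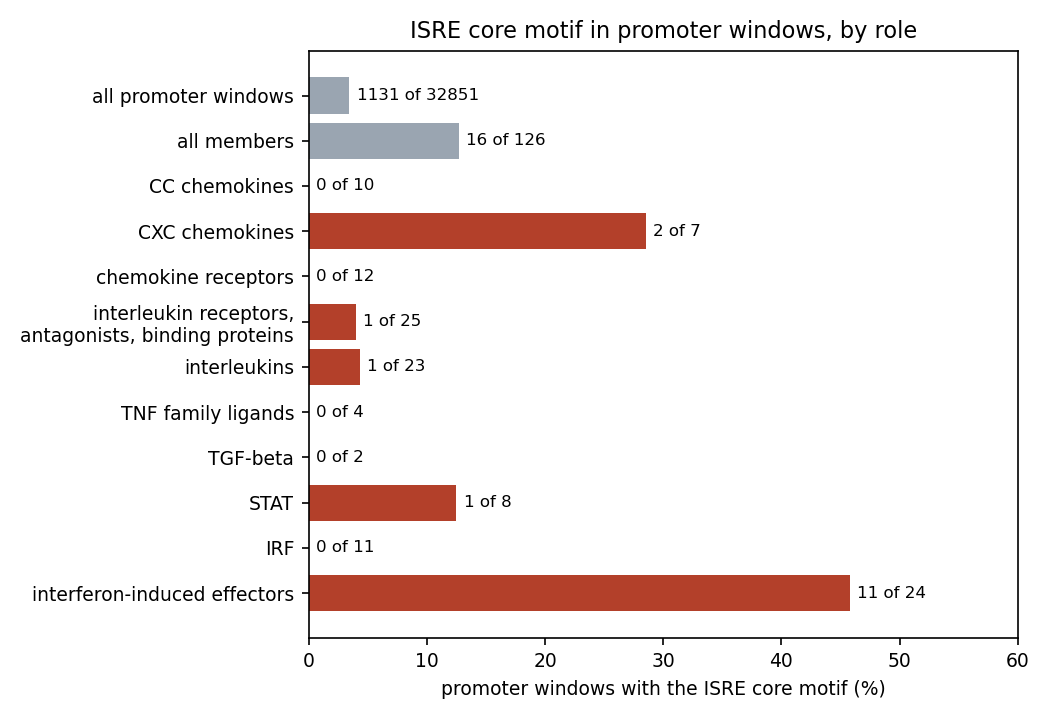
Bars give the percentage of RefSeq promoter windows that hold the ISRE core on either strand, for all windows and members (grey) and for each role (red), with counts beside them. Interferon-induced effectors stand at 11 of 24 windows, against 1131 of 32851 windows overall.

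Signalling genes around the members, from lists chosen with earlier results of these data known, held 0 genes that passed the test. Of 20 measured JAK, SOCS and interferon receptor genes, 16 were above the limit, 5 with differences above 0 and 11 below (median -0.066). The interferon gamma receptor chain Ifngr1 had signals of 509 and 614 on the control arrays against 1004 and 677 on the APPSw arrays, a log2 difference of 0.56 (SE 0.25). Its geometric mean over the controls alone lay under the limit, so its APPSw signals carried it over. Ifnar2, a chain of the type I interferon receptor, had 647 and 611 on the control arrays against 779 and 979.5 on the APPSw arrays and 0.47 (SE 0.19). In both, the APPSw signals lay above the controls without overlap, and both are named after their values were seen. No other of the 16 had both APPSw arrays above both controls (2 genes, 12.5%, background 22.2%). Socs5 and Pias3 had both below (12.5%, background 19%). NF-kappa B and Toll pathway genes had 7 of 12 above 0 and 5 below (median 0.018). TGF-beta receptors and SMADs had 5 of 11 above 0 and 6 below (median -0.045). Of the 7 under the limit, 2 lay above 0, and the median was -0.279 against 0.211 over all probe sets under the limit. Both APPSw arrays lay below both controls for 4 of the 7 (background 10.7%) and above for 1 (background 25.8%). Smad3, 1 of the 4, had 754 and 649.5 on the control arrays, over the limit, against 232 and 182 on the APPSw arrays (-1.77). It is named after its values were seen. The median over all 7453 probe sets was 0.018.

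Markers of the cells that could carry these transcripts were set beside the results, each gene by its brightest probe set. Of the labelled tissue, 12 of 13 measured markers of hippocampal principal neurons were above the limit, with summed signals of 98848 and 91898 on the control arrays against 72482 and 62424 on the APPSw arrays. Of the 12, 11 had differences below 0 (median -0.507), and 8 had both APPSw arrays below both controls (66.67%, background 19%). The part of this shift in the members' values was not tested. For microglia and macrophages 11 of 17 measured markers were above the limit, and their summed signal was 53857 and 48902 on the control arrays against 47088 and 51686 on the APPSw arrays. Of the 11, Tyrobp, Cd68, Itgax, Ly86 and Cx3cr1 had both APPSw arrays above both controls (45.45%, background 22.2%), and Csf1r, Laptm5 and C1qc had both below (27.27%, background 19%). The other probe sets of Csf1r and Laptm5 that were above the limit had both APPSw arrays above both controls. Of the 6 markers under the limit, 1 had both APPSw arrays above both controls (Cst7, background 25.8%) and 1 below (Aif1, background 10.7%). Aif1 had 627 and 664 on the control arrays, over the limit, against 455 and 158 on the APPSw arrays (log2 difference -1.27). The part of microglial markers in values such as that of Irf8 was not tested. Markers of T, B and NK cells were above the limit for 3 of 15, with summed signals of 6090 and 8649 on the control arrays against 7281 and 7152 on the APPSw arrays, and Cd3g had 28.9 and 39.5 on the control arrays against 113 and 28.6 on the APPSw arrays. In neither sum was APPSw 2 outside the range of the other arrays. The 4 erythrocyte markers summed to 10508 and 13919 on the control arrays, 13837 on APPSw 1 and 23479 on APPSw 2, most of it from the haemoglobin gene Hba-a1. They moved with the effectors high in APPSw 2, and their part in that result was not tested. Astrocyte markers summed to 209335 and 209027 on the control arrays, 177719 on APPSw 1 and 214267 on APPSw 2, and endothelial and mural markers to 15665 and 14424, then 14917 and 16201 in the same order. Of the 10 astrocyte markers, all above the limit, 2 had differences above 0 and 8 below (median -0.146). Both APPSw arrays lay above both controls for 1 of the 10 (10%, background 22.2%) and below for 2 (20%, background 19%). Oligodendrocyte markers summed to 96856 and 102701 on the control arrays, 94499 on APPSw 1 and 78271 on APPSw 2. All 7 above the limit had differences below 0 (median -0.281), and 4 had both APPSw arrays below both controls (57.14%, background 19%). That sum was lowest in the array with the high effectors, and its part in their values was not tested. Neutrophil and monocyte markers summed to 9163 and 10494 on the control arrays against 11225 and 10062 on the APPSw arrays. Choroid plexus markers summed to 26255 and 16664 on the control arrays, 142946 on APPSw 1 and 20324 on APPSw 2, with APPSw 2 between the controls. Meningeal and fibroblast markers summed to 53081 and 63302 on the control arrays, 93799 on APPSw 1 and 63775 on APPSw 2. All 8 of them above the limit had differences above 0 (median 0.568), and 6 had both APPSw arrays above both controls (75%, background 22.2%). The part of these lists in the members brightest in APPSw 1, such as Il27ra and Ifi27, was not tested. Nor was it tested for members higher in both APPSw arrays, such as Ifitm3 and Irf8. No marker was at 0 in any array, the lowest signal being 13.3. In bulk tissue, fewer cells of a type and less RNA per cell cannot be told apart.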

How the data were processed

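Signals were deposited by the authors as linear intensities, 1 per probe set and array, with MAS 5.0 software and a scaling target of 2500, per the labels. Not given in the sources used here are the background settings, labelling and scanner. From 12488 probe sets, 66 manufacturer's controls were left out. Symbols came from the platform annotation, and all 146 members' gene identifiers were found in RefSeq (GRCm38.p6). Probe sets with a mean log2 signal at or above the 40th percentile (7453) entered a linear model in limma 3.58.1 under R 4.3.3, with moderated two-sided tests, Benjamini-Hochberg adjustment over all 7453 and a threshold of 0.05. There were 2 residual and 3.7 prior degrees of freedom. The number of arrays limits precision, and the smallest two-sided p of an exact permutation test of 2 against 2 is 0.333. SE is limma's moderated one. The fit was tested on simulated data. Members and lists were chosen with earlier results of these data known. Named genes are a panel of cytokines and interferon genes, the 10 brightest, the 5 largest statistics in each direction, genes with several probe sets above the limit, and those beside the limit, with the rest of a role where it was described whole. Alternatives were quantile normalization, median centring, other filters, a floor or pseudocount of 250, an intensity trend, the replicate number as a block, gene means and each array left out.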

Additional observations from a re-analysis of the deposited data

How the results depend on the processing

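No member passed the adjusted threshold under any alternative run, the fit with a replicate block included. The numbers in the titles are not stated to pair mice, and the deviations of same-numbered arrays correlated at -0.02. With the replicate block 3 members had an unadjusted p under 0.05 and 0 passed after adjustment. Without the filter, counts covered all 146 probe sets, which gave 15 at an unadjusted p under 0.05, 46 above both controls (background 23.6%), 15 below both (background 15.7%) and a median of 0.222. After median centring 9 lay below both controls, and with a gene's probe sets averaged 3 did. A limit at the 60th percentile left 16 probe sets. With an array left out, counts ranged from 2 to 3 at an unadjusted p under 0.05, from 14 to 19 above and from 9 to 12 below the controls, where fewer arrays make overlap rarer, and the median from 0.0060 to 0.199. The lone array of a group is then assumed to vary like the other group. For counts after median centring, after averaging or with an array left out, the share over all probe sets is not given here. Those counts therefore do not show whether the members differ from the background. Differences changed sign after quantile normalization for 4 probe sets (-0.13 for the dimmest Cxcl12 probe set, 0.010 for Ifitm10, -0.036 for the dimmer Il17ra probe set, -0.065 for the dimmer Il6st probe set) and after median centring for 6 (-0.017 for the brightest Cxcl12 probe set, -0.086 for the dimmest Cxcl12 probe set, -0.032 for the dimmer Il17ra probe set, -0.0016 for Il18, -0.071 for the dimmer Il6st probe set, -0.058 for the brighter Stat5a probe set). With an array left out, 22 of the 37 differences changed sign: -0.16 to 0.49 for Ccl1, -0.051 to 0.21 for the brightest Cxcl12 probe set, -0.40 to 0.024 for the middle Cxcl12 probe set, -0.49 to 0.51 for the dimmest Cxcl12 probe set, -0.078 to 2.13 for Gbp3, -0.019 to 0.0067 for Ifitm10, -0.13 to 0.58 for Il10rb, -0.27 to 0.86 for Il15ra, -0.27 to 0.15 for Il16, -0.10 to 0.23 for the dimmer Il17ra probe set, -0.10 to 0.29 for Il18, -0.38 to 0.23 for Il18bp, -0.62 to 0.33 for Il1r1, -0.60 to 0.32 for Il6ra, -0.15 to 0.20 for the dimmer Il6st probe set, -0.049 to 0.40 for Il9, -0.026 to 0.25 for Irf1, -0.40 to 0.054 for Irf5, -0.31 to 0.098 for the brighter Stat3 probe set, -0.048 to 0.40 for the dimmer Stat5a probe set, -0.042 to 0.42 for Tgfb2, -0.097 to 0.39 for Tgfb3. The cause of these changes was not tested. Signals under 565.2 are the least precise.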

Other observations

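Chemokine genes that the naming rule does not cover included Cx3cl1, the neuronal ligand of the microglial receptor Cx3cr1. Cx3cr1 had signals of 2588 and 2413 on the control arrays against 3665 and 2909 on the APPSw arrays, with both APPSw signals above both controls and a log2 difference of 0.39 (SE 0.20). Cx3cl1 had 47127 and 42745 on the control arrays against 44653 and 33387 on the APPSw arrays by its brighter probe set, a log2 difference of -0.22 (SE 0.21), and 0.67 (SE 0.38) by the other. Ackr2, a scavenger receptor of inflammatory CC chemokines, had 474 and 651 on the control arrays against 934 and 786 on the APPSw arrays, higher without overlap, and 0.63 (SE 0.23, adjusted p = 0.609) by limma. Its geometric mean over the controls alone lay under the limit, so it was tested only through its APPSw signals. Among TGF-beta partners, Smad1 had 2503 and 3000.0 on the control arrays against 1593 and 1899 on the APPSw arrays, lower without overlap, with -0.66 (SE 0.20) by this probe set and -0.14 (SE 0.17) by the other. Ltbp4, which anchors latent TGF-beta in the matrix, had 7169.7 and 7306 on the control arrays against 5568 and 3791 on the APPSw arrays and -0.66 (SE 0.23). These genes other than Cx3cr1 and Cx3cl1 are named after their values were seen.

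Of 15 member genes with several probe sets, 9 had differences of both signs. Il1r2, the decoy receptor of interleukin 1, had 324 and 525 on the control arrays against 443 and 104 on the APPSw arrays by 1 probe set and 72.7 and 329 on the control arrays against 511 and 404 on the APPSw arrays by another. Cxcl1, a neutrophil attractant, had 394 and 92.3 on the control arrays against 99.6 and 169 on the APPSw arrays and 43.2 and 28.9 on the control arrays against 45.5 and 355 on the APPSw arrays. Both genes lay under the limit by both probe sets.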
